A study of Homo sapiens with 3 samples.

Results

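The miR-17-92 cluster was followed in HCCLM3 cells, a line of human hepatocellular carcinoma (HCC) that metastasizes in nude mice, of which 3 strains were sequenced. Its members were taken by name, as every entry of the count tables called hsa-miR-17, 18a, 19a, 19b, 20a or 92a with any copy or arm suffix, which gave 14 of the 1921 names listed. The parent library is labelled as low metastasis, subclone1 as more metastatic with specificity for lung, and subclone2 as metastatic to lung as well as celiac lymph node. The study describes its parental cells as HCCLM3 with a stable red fluorescent protein and as highly metastatic, and its subclones as lines each grown from a single cell of a lung or lymph node metastasis; which of those lines were sequenced as subclone1 and subclone2 is not given in the sources used here. All strains were cultured in DMEM. Each group held 1 library, so no test between groups was possible, and every interval given here is a 95% interval that covers counting error only. Such an interval compares libraries and says nothing of the spread between cultures.

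Libraries held 7902438 counts in parent cells, 3570864 in subclone1 and 4568075 in subclone2, where a count is a read assigned to a mature miRNA name. Levels are given as counts per 1000000 of the library total (CPM). A count of 0 allowed a level of up to 0.380 CPM in the parental strain, 0.840 in subclone1 and 0.657 in subclone2 (3 counts of the total). Names that mark cell types were examined too. hsa-miR-122-5p, the leading miRNA of hepatocytes, had 6.71 CPM in the parental library, 5.32 in subclone1 and 3.94 in subclone2. hsa-miR-122-3p and hsa-miR-885-5p, the other liver names examined, had 0 counts in every library. At these levels the liver names do not mark the cells as hepatocytes. Of 7 names that mark blood, endothelial or fibroblast cells, hsa-miR-486-5p had between 9.80 and 16.3 CPM, and the other 6 had at most 8 counts in any library.

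The miR-17-92 cluster is a polycistron: a single long transcript, MIR17HG, carries a row of hairpins, each of which Drosha and Dicer cut into short RNAs. One strand of each hairpin, the guide, usually enters the Argonaute protein and directs it to messenger RNAs through the seed, bases 2 to 8 of the strand, while the other strand is mostly degraded. The cluster is induced by MYC and E2F transcription factors, is amplified or raised in many tumours including HCC, and is known to promote proliferation and survival. Among its guides, miR-17-5p and miR-20a-5p limit E2F1, the cell cycle inhibitor p21 and the TGF-beta receptor, miR-18a limits SMAD proteins, and miR-92a limits integrin alpha 5 and the proapoptotic protein BIM.

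The sequences show which members carry the same seed, and they are credited to RefSeq (GRCh38.p14), in which all 14 names were matched. Guides are printed in hairpin order along chromosome 13, 5′ to 3′, with the seed in capitals, followed by the abundant partner strands of the first and last hairpins.
hsa-miR-17-5p: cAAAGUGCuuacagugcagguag
hsa-miR-18a-5p: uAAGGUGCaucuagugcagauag
hsa-miR-19a-3p: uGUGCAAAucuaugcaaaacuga
hsa-miR-20a-5p: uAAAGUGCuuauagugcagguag
hsa-miR-19b-3p: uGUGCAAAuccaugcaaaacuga
hsa-miR-92a-3p: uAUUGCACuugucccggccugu
hsa-miR-17-3p: aCUGCAGUgaaggcacuuguag
hsa-miR-92a-1-5p: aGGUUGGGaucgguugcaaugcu

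hsa-miR-17-5p and hsa-miR-20a-5p share a seed and differ by 2 substitutions, C1U and C12U, with positions counted from 1 at the 5′ end of the first-named strand. hsa-miR-19a-3p and hsa-miR-19b-3p share another seed and differ by the single substitution U11C. hsa-miR-18a-5p and hsa-miR-92a-3p have seeds that no other detected member carries. With so few differences, reads could have been given to the wrong relative, and how the authors treated such reads is not given in the sources used here.

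In the annotation, 6 hairpins lie within 787 bases of chromosome 13 (GRCh38, chr13:91350605-91351391, plus strand), in the order MIR17, MIR18A, MIR19A, MIR20A, MIR19B1 and MIR92A1. Each lies inside an exon of MIR17HG in GENCODE 29. Of the 14 names, 12 are cut from these hairpins. The other two, hsa-miR-19b-2-5p and hsa-miR-92a-2-5p, come from MIR19B2 and MIR92A2 on chromosome X, and they had 0 counts in every library. The 3p strands hsa-miR-19b-3p and hsa-miR-92a-3p are made from chromosome 13 and chromosome X with identical sequence, so their source cannot be told apart by reads. Coordinates are those of the annotation, since the tables carry none.

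The first and last hairpins are shown because both of their strands matched many reads. Capitals mark the mature strands, 5p first.
MIR17: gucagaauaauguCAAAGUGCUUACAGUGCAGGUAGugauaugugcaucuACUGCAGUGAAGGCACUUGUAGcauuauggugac
MIR92A1: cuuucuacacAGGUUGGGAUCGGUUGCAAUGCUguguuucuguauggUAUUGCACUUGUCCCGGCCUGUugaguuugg

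First, the level of the whole cluster was examined. Its names together had 13624 counts (1724 CPM, interval 1695 to 1753) in parent cells, 4332 counts (1213 CPM, 1177 to 1250) in subclone1 and 5175 counts (1133 CPM, 1102 to 1164) in subclone2. The summed level was therefore 1.42-fold lower in subclone1 than in the parent (interval 1.37 to 1.47) and 1.52-fold lower in subclone2 (1.47 to 1.57). One strand carried most of it: hsa-miR-92a-3p held 74.6% of the cluster counts in the parental strain (73.9 to 75.3), 85.4% in subclone1 (84.3 to 86.4) and then 85.4% in subclone2 (84.4 to 86.3). Without hsa-miR-92a-3p the sum was 438 CPM in the parental library, 177 in subclone1 and 166 in subclone2. This remainder was 2.47-fold lower in subclone1 (2.27 to 2.70) and 2.64-fold lower in subclone2 (2.44 to 2.86).

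Members differed widely in their read counts. In the parent, hsa-miR-92a-3p ranked 29 of all names by counts, hsa-miR-92a-1-5p 60, hsa-miR-17-5p 97, hsa-miR-19b-3p 115 and hsa-miR-17-3p 140. These 5 names and hsa-miR-20a-5p had a mean of at least 10 CPM in each pair of libraries and were kept for ratios. In every library hsa-miR-92a-3p came first, hsa-miR-92a-1-5p next and hsa-miR-17-5p after it. Below them, hsa-miR-20a-5p, hsa-miR-19b-3p and hsa-miR-17-3p had overlapping intervals in subclone1 and in subclone2. Ligation in small RNA kits favours some ends over others, so an order among members describes reads and not molecules.

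**Figure D1:**
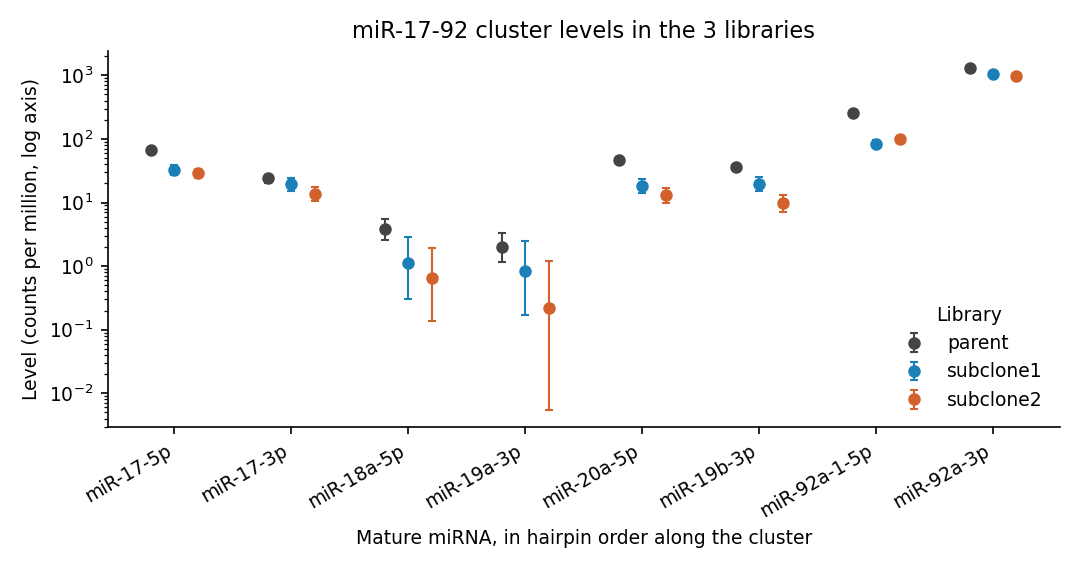
Level of 8 members in CPM (log axis) in the parent, subclone1 and subclone2 libraries, with members in hairpin order and bars giving the 95% counting interval of 1 library each. The parent point is the highest for every member shown, and the levels span from 1286 CPM for hsa-miR-92a-3p in the parent to 0.219 CPM for hsa-miR-19a-3p in subclone2, which is 1 count.

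The members were then compared with the parent one by one, by seed group. A member was called lower when its ratio was at least 2-fold and the interval of the ratio excluded 1. Log2 ratios were computed with 0.5 counts added to each library. Since 1 library stood for each strain, a call marks a size and not a tested difference.

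hsa-miR-17-5p, the first guide of the transcript, had 525 counts (66.4 CPM) in parent cells, 117 (32.8 CPM) in subclone1 and 131 (28.7 CPM) in subclone2. It was 2.03-fold lower in subclone1 (interval 1.66 to 2.50, log2 -1.02), which was just past the threshold, and 2.32-fold lower in subclone2 (1.91 to 2.83, log2 -1.21). Both subclones lay below the parent and their own intervals overlapped. hsa-miR-20a-5p, which shares its seed, had 375 counts (47.5 CPM) in the parental strain, 65 (18.2 CPM) in subclone1 and 59 (12.9 CPM) in subclone2. The decrease was 2.61-fold in subclone1 (1.999 to 3.45, log2 -1.37) and 3.67-fold in subclone2 (2.79 to 4.92, log2 -1.87). In subclone2 the ratio of hsa-miR-17-5p to hsa-miR-20a-5p was 1.59 times that of the parent (1.12 to 2.26), whereas in subclone1 the interval of this change, 0.913 to 1.82 around 1.29, included 1.

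hsa-miR-18a-5p had 30 counts (3.796 CPM) in the parental library, 4 (1.12 CPM) in subclone1 and 3 (0.657 CPM) in subclone2. It was below the minimum level and was not called. The ratio to the parent was 0.295 in subclone1 (interval 0.0755 to 0.837) and then 0.173 in subclone2 (0.0338 to 0.556), so its intervals lay below 1 as well.

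The miR-19 seed group was carried by hsa-miR-19b-3p, with 282 counts (35.7 CPM) in parent cells, 70 (19.6 CPM) in subclone1 and 45 (9.85 CPM) in subclone2. In subclone1 it was 1.82-fold lower (log2 -0.86, interval -1.26 to -0.48) and did not reach the threshold. In subclone2 it was 3.62-fold lower (2.64 to 5.08, log2 -1.84) and was called. It was the only kept member under 10 CPM in a subclone, and there it passed the minimum level through its parent level. hsa-miR-19a-3p had 16 counts in the parental strain, 3 in subclone1 and 1 in subclone2; its ratio to the parent was 0.415 (0.0775 to 1.45) in subclone1 and 0.108 (0.00258 to 0.696) in subclone2. With both names summed, which removes any exchange of reads between them, the level was 37.7 CPM in the parental library, 20.4 in subclone1 and 10.1 in subclone2.

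The last hairpin carries the names with the highest counts, and these names had unequal ratios to the parent. Its 5p strand hsa-miR-92a-1-5p, by sequence made only from chromosome 13, had 2028 counts (257 CPM) in parent cells, 302 (84.6 CPM) in subclone1 and 449 (98.3 CPM) in subclone2. It was 3.03-fold lower in subclone1 (2.69 to 3.44, log2 -1.60) and 2.61-fold lower in subclone2 (2.36 to 2.90, log2 -1.38). Its guide hsa-miR-92a-3p has the same sequence as a strand from chromosome X. hsa-miR-92a-3p had 10165 counts (1286 CPM) in the parental strain, 3700 (1036 CPM) in subclone1 and 4417 (967 CPM) in subclone2. This was 1.24-fold lower in subclone1 (1.20 to 1.29, log2 -0.31) and 1.33-fold lower in subclone2 (1.28 to 1.38, log2 -0.41), with intervals clear of 1 but far from the threshold.

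hsa-miR-17-3p, the partner strand of hsa-miR-17-5p, had 189 counts (23.9 CPM) in the parental library, 69 (19.3 CPM) in subclone1 and 63 (13.8 CPM) in subclone2. In subclone1 the log2 ratio of -0.30 had an interval of -0.73 to 0.10, and no difference was detectable at this depth. In subclone2 the log2 ratio was -0.79 (-1.23 to -0.38), which was not called.

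**Figure D2:**
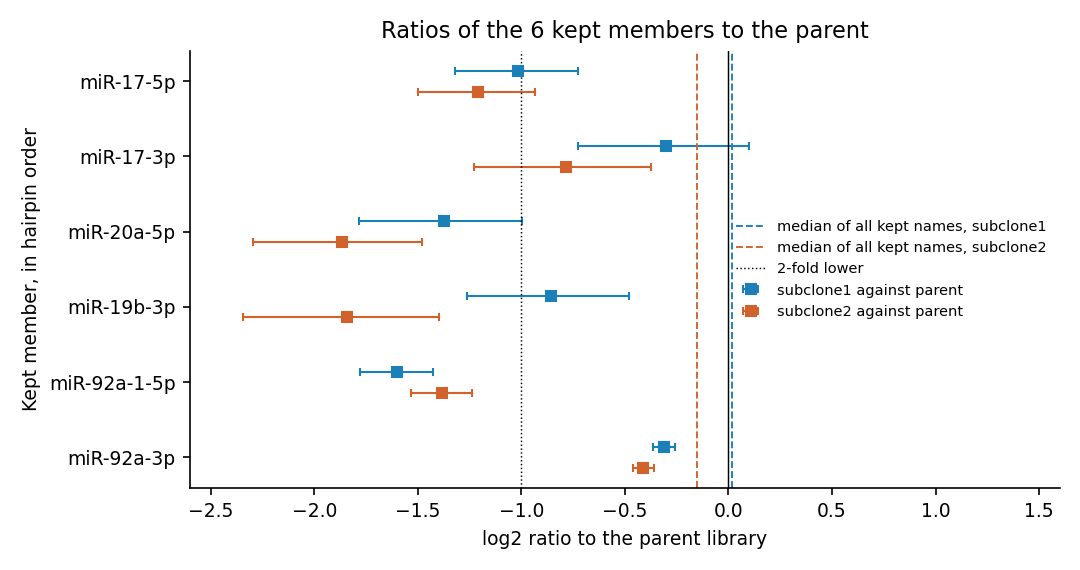
Log2 ratio of the 6 kept members to the parent library for subclone1 and subclone2 (squares, with bars for the 95% counting interval), in hairpin order. The dotted line marks 2-fold lower and the dashed lines the median of all kept names (0.02 and -0.15); every square lies left of its dashed line, from -0.30 for hsa-miR-17-3p in subclone1 to -1.87 for hsa-miR-20a-5p in subclone2.

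Of the 14 names, only the 6 kept could be called. Of these 6, 3 were called lower in subclone1 (hsa-miR-17-5p, hsa-miR-20a-5p and hsa-miR-92a-1-5p) and 0 higher. Among all 192 kept names of that comparison, 3.12% were called lower and 9.9% higher. In subclone2, 4 of the 6 kept members were called lower (those named and hsa-miR-19b-3p) and 0 higher. There, 4.81% of 187 kept names were called lower and 5.88% higher. The median log2 ratio of the 6 kept members was -0.94 in subclone1 and -1.30 in subclone2, beside 0.02 and -0.15 for all kept names. Ranked from the lowest ratio, hsa-miR-92a-1-5p stood at 2, hsa-miR-20a-5p at 3, hsa-miR-17-5p at 6 and hsa-miR-19b-3p at 9 of 192 in subclone1. In subclone2 hsa-miR-20a-5p stood at 1, hsa-miR-19b-3p at 2, hsa-miR-92a-1-5p at 6 and hsa-miR-17-5p at 8 of 187. hsa-miR-17-3p (48 and 17) and hsa-miR-92a-3p (47 and 52) stood nearer to the middle. Both comparisons use the same parent library, so a parent value that was high by chance would lower both ratios alike.

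**Figure D3:**
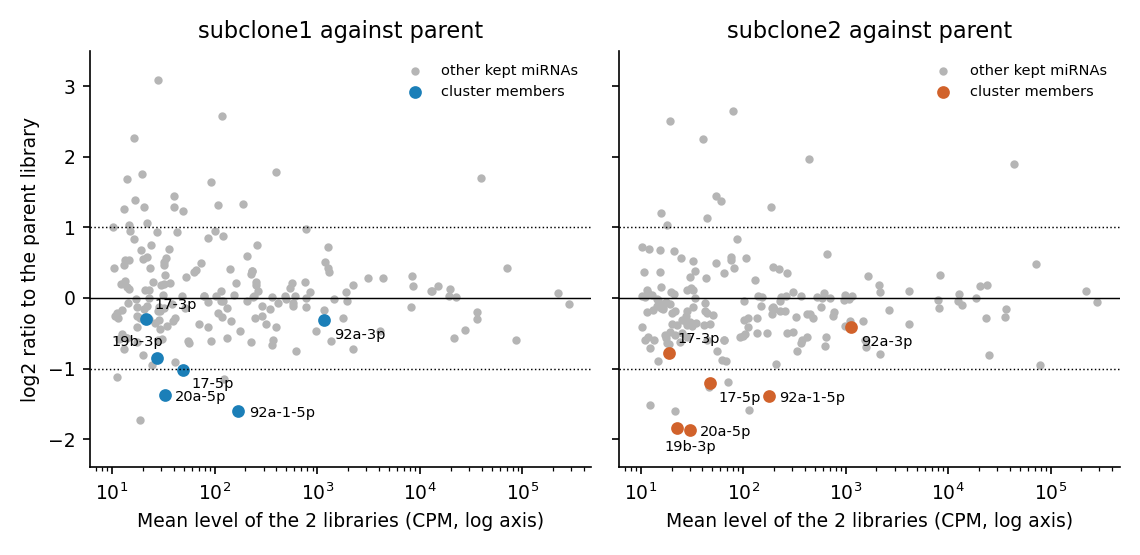
Log2 ratio to the parent against the mean level of the 2 libraries compared (CPM, log axis) for every kept miRNA, with 192 names for subclone1 (left) and 187 for subclone2 (right); coloured points are the 6 kept cluster members and dotted lines mark 2-fold. Members called lower lie at the bottom of each cloud, while hsa-miR-92a-3p, the member farthest to the right, lies at -0.31 and -0.41.

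Between the subclones, no member was called (subclone2 against subclone1), where 4.19% of 191 kept names were called lower and 1.57% higher (8 and 3 names, or 5 and 3 with TMM scaling). hsa-miR-19b-3p came closest, at 9.85 against 19.6 CPM, a log2 ratio of -0.99 (interval -1.57 to -0.43). Summed with hsa-miR-19a-3p, the log2 ratio was -1.02 (-1.59 to -0.47), just past the threshold when scaled to the library total. The ratios of hsa-miR-17-5p, hsa-miR-17-3p and hsa-miR-20a-5p had intervals that included 1. hsa-miR-92a-1-5p was 1.16 times as high in subclone2 (1.002 to 1.35). The direction for hsa-miR-92a-3p (log2 -0.10) and for hsa-miR-17-5p (log2 -0.19) depended on the scaling of the libraries, and none is drawn.

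Next, the strands of each hairpin were set against each other, a measure that does not depend on library scaling. For miR-92a, hsa-miR-92a-1-5p was set against all hsa-miR-92a-3p reads, including any from chromosome X. The 5p strand made up 16.6% of the counts of both names in parent cells (interval 15.98 to 17.3). It made up 7.55% in subclone1 (6.75 to 8.41) and then 9.23% in subclone2 (8.43 to 10.1). The ratio of 5p to 3p was thus 0.409 times that of the parent in subclone1 (0.359 to 0.465) and 0.510 times in subclone2 (0.456 to 0.568). In miR-17 the 5p strand held 73.5% of the counts in the parental strain (70.1 to 76.7), 62.9% in subclone1 (55.5 to 69.9) and then 67.5% in subclone2 (60.4 to 74.1). Its 5p to 3p ratio was 0.611 times that of the parent in subclone1 (0.429 to 0.873), and in subclone2 the change of 0.749 had an interval including 1 (0.525 to 1.08). The 5p strand, whose share was lower in both miR-17 and miR-92a in subclone1, is the guide in MIR17 and the partner strand in MIR92A1.

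Strand ratios of related hairpins at other loci differed between libraries too. In miR-25, the 5p to 3p ratio was 0.539 times that of the parent in subclone1 (0.516 to 0.562) and then 0.900 in subclone2 (0.866 to 0.935). In miR-106b it was 0.961 (0.830 to 1.12) and 0.562 (0.493 to 0.640). In miR-92b both changes, 0.954 (0.880 to 1.03) and 0.933 (0.869 to 1.001), had intervals including 1. A shift between strands was therefore not particular to the cluster. The remaining hairpins gave too few partner strands to compare: hsa-miR-20a-3p had 6, 1 and 3 counts in the parent, subclone1 and subclone2, hsa-miR-18a-3p had 3, 1 and 4, hsa-miR-19a-5p had 2, 0 and 0, and hsa-miR-19b-1-5p had 3, 0 and 0.

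For hsa-miR-92a-3p, the chromosome X copy MIR92A2 could add reads. The 5p strand of that hairpin had 0 counts in every library, and the 8 further names of its cluster (hsa-miR-106a, hsa-miR-18b, hsa-miR-20b and hsa-miR-363) had 7 counts in the parental library, 0 in subclone1 and 1 in subclone2. How much of hsa-miR-92a-3p came from chromosome X was not tested.

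**Figure D4:**
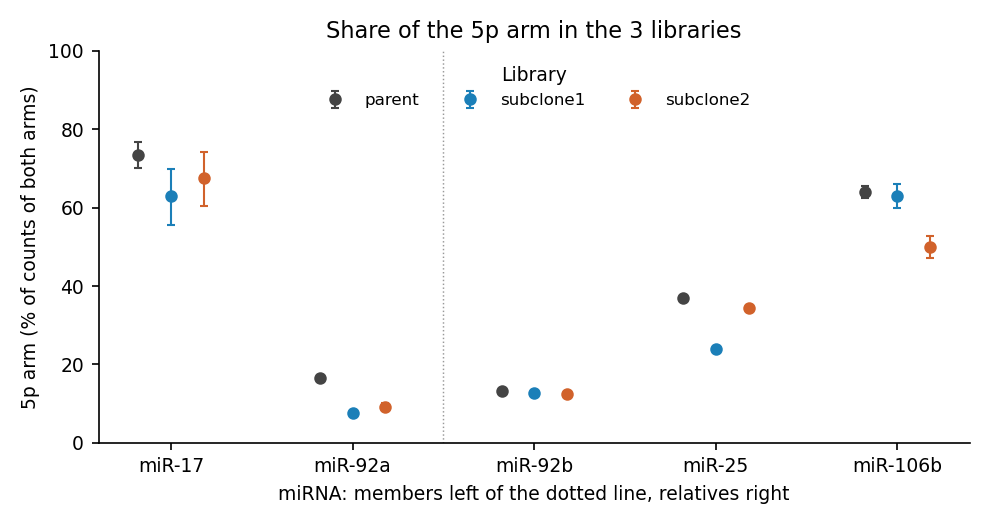
Share of the 5p strand among the counts of both strands (%) in the parent, subclone1 and subclone2 libraries, with 95% binomial intervals, for miR-17 and miR-92a and, right of the dotted line, for the relatives miR-92b, miR-25 and miR-106b. In miR-92a the share drops from 16.6% in the parent to 7.55% and 9.23%, and in miR-92b it stays between 12.4% and 13.2%.

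Finally, the members were placed among the miRNAs that carry their seeds, since a shared seed can recognise the same sites. Strands of the miR-106b-25 cluster (in the MCM7 gene) and of MIR92B are printed with the seed in capitals, so that the match to the members above can be read.
hsa-miR-106b-5p: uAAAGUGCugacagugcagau
hsa-miR-93-5p: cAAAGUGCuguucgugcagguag
hsa-miR-25-3p: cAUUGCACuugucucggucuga
hsa-miR-92b-3p: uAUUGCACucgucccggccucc

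hsa-miR-17-5p and hsa-miR-20a-5p held a small part of the reads of their seed family, which is a share of reads and not of molecules. Together they held 7.49% of its counts in parent cells (interval 7.02 to 7.97), 4.85% in subclone1 (4.19 to 5.59) and then 3.98% in subclone2 (3.44 to 4.57). hsa-miR-93-5p led the family with 1129 CPM in the parental strain, 820 in subclone1 and 860 in subclone2, and hsa-miR-106b-5p had 278, 179 and 145 CPM. These relatives were lower in the subclones too, with log2 ratios of -0.46 and -0.39 for hsa-miR-93-5p and -0.63 and -0.94 for hsa-miR-106b-5p, and none was called. The ratio of hsa-miR-17-5p to hsa-miR-93-5p was 0.680 times that of the parent in subclone1 (0.549 to 0.836) and 0.567 times in subclone2 (0.463 to 0.691). Against hsa-miR-106b-5p it was 0.764 times (0.608 to 0.954) and 0.828 times (0.666 to 1.03), the latter with an interval including 1. The whole seed family had 1522 CPM in the parental library, 1050 in subclone1 and 1046 in subclone2. hsa-miR-106a-5p, which differs from hsa-miR-17-5p only by C1A, had 5 counts in the parent and 0 in each subclone.

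hsa-miR-92a-3p held 21.3% of the counts of its seed family in parent cells (20.9 to 21.6), 16.4% in subclone1 (15.9 to 16.8) and then 17.02% in subclone2 (16.6 to 17.5). hsa-miR-25-3p had 2794 CPM in the parental strain, 3396 in subclone1 and 2477 in subclone2, and hsa-miR-92b-3p had 1965, 1902 and 2235 CPM. The summed family had 6050 CPM in the parental library, 6337 in subclone1 and 5682 in subclone2. hsa-miR-92b-3p differs from hsa-miR-92a-3p by 3 substitutions and hsa-miR-25-3p by 4. The miR-18 and miR-19 seeds were carried almost wholly by members: names of other loci added 1 count in parent cells, 0 in subclone1 and 1 in subclone2 to the miR-18 seed, and the miR-19 seed was found only in hsa-miR-19a-3p and hsa-miR-19b-3p.

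**Figure D5:**
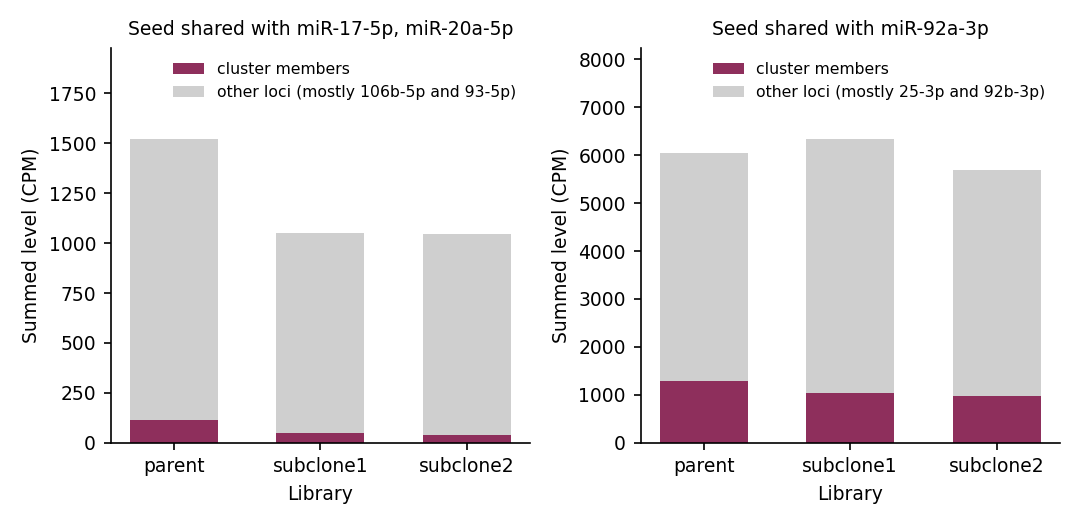
Summed level (CPM) of the miRNAs that share a seed with miR-17-5p and miR-20a-5p (left) and with miR-92a-3p (right), as stacked bars for each library, split into cluster members and names of other loci. Members make up 114, 51.0 and 41.6 CPM on the left and 1286, 1036 and 967 CPM on the right in the parent, subclone1 and subclone2.

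All the cluster hairpins lie on 1 transcript, and the region around its RefSeq start is given as the sequence that they share. It covers 250 bases before and 50 after the RefSeq start of MIR17HG (GRCh38.p14, chr13:91347437-91347736, plus strand), with the motif match described below in capitals. In GENCODE 29 the gene starts at base 91347820, beyond the end of this window.
MIR17HG: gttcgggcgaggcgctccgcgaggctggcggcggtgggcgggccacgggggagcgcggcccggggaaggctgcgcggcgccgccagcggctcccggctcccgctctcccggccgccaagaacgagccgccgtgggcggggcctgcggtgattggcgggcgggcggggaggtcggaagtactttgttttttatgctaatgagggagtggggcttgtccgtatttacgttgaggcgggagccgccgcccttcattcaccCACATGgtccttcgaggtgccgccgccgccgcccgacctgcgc

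This window was 73% G and C, beside a median of 58.7% over 35116 RefSeq promoters of the same length. On both strands it held 0 matches to CACGTG, the E-box that MYC binds, which 7.26% of promoters hold, and 1 match to the E-box variant CATGTG, found in 11.1%. The match begins 7 bases after the RefSeq start. The E2F motifs TTTCGCGC (0.515% of promoters) and TTTGGCGC (0.652%) had 0 matches, as did TATAAA (11.5%). CCAAT, held by 34.6%, had 1 match, 101 bases before the RefSeq start. These are matches of letters in this window only, and the tables hold no measure of the transcript itself.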

How the data were processed

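Small RNA libraries were made from 1 ug of total RNA with the Illumina TruSeq Small RNA kit. The authors deposited unscaled read counts per mature miRNA name, 1 library per group; their processing notes name CASAVA 1.4 and hg19, while trimming, aligner, miRBase release and treatment of reads that match several names are not given in the sources used here. Such treatment could move reads between near-identical members. Members, lists and rules were chosen with earlier results of these data known. Counts were scaled to the library total (Python 3.11.15, SciPy 1.17.1). Names whose mean level in the compared pair reached 10 CPM were kept, and a name was called at a ratio of at least 2-fold with an exact conditional binomial 95% interval excluding 1. Levels and shares carry Clopper-Pearson intervals, and changes in the ratio of 2 names carry exact conditional odds ratio intervals. Reads carry no molecular identifiers, so intervals and limits cover counting error only. Sequences were matched to RefSeq by name for 1576 of 1921 names. Named miRNAs are all members, kept relatives by seed or cluster, kept names on chromosome 13, called names of a MYC list and the 5 names nearest in ratio. Alternatives used TMM (edgeR 4.0.16), median-of-ratios factors (DESeq2 1.42.0), a total without the 10 leading names of any library, other minimum levels, fold thresholds and pseudocounts, and summed names.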

Additional observations from a re-analysis of the deposited data

How the results depend on the processing

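No paired analysis was possible because there was 1 library per strain, which also left no library to omit. Against the parent, the 3 and 4 members called lower were the same under TMM, median-of-ratios and the total without the leading names. These scalings moved the median of all kept names by -0.06 to -0.07 (log2) in subclone1, by 0.07 to 0.17 in subclone2 and by 0.14 to 0.23 between the subclones. Adding 5 counts took hsa-miR-17-5p below the 2-fold threshold in subclone1 (-0.97). A minimum of 100 CPM left 1 called member in each comparison with the parent, and a median of -0.90 in subclone2, because fewer members were kept. A fold threshold of 4 left 0 in both, and an interval wholly beyond 2-fold left 1 in subclone1 and 3 in subclone2. Without hsa-miR-92a-3p the sum passed 2-fold in subclone1 (-1.31) and subclone2 (-1.40). Between the subclones a threshold of 1.5 called 1 member, hsa-miR-19b-3p. There, TMM, median-of-ratios and the total without the leading names turned the sign of the sum (0.13, 0.11 and 0.045) and of hsa-miR-92a-3p (0.13, 0.11 and 0.044), and the first pair that of hsa-miR-17-5p (0.039 and 0.021). Of 72 values for single members 66 kept their direction and side of the threshold. Of 63 summary values 51 were counted as unchanged, some of them with a visible shift. Summed over the seed families of the members, the log2 ratio to the parent was -0.07 in subclone1 and -0.20 in subclone2. The cluster sum had -0.51 and -0.61. With no minimum level, 4 members were called lower in subclone1 and 6 in subclone2. For the other minimum levels and fold rules, the share of all names called is not given here. Counts of called members at those settings are therefore no result about the cluster. Ratios of the members below the minimum level, each with 30 counts or fewer in any library, are imprecise at this depth.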

Other observations

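The miRNAs whose ratios to the parent lay nearest to the median of the kept members were listed over 185 names kept in both comparisons, by distance in the plane of the 2 log2 ratios (medians -0.94 and -1.30). The 5 nearest names outside the cluster were hsa-miR-34a-5p (-0.96 in subclone1 and -1.61 in subclone2, distance 0.31), hsa-miR-181a-2-3p (-0.61 and -1.26, 0.33), hsa-miR-4521 (-1.15 and -1.58, 0.36), hsa-miR-106b-5p (-0.63 and -0.94, 0.47) and hsa-miR-222-3p (-0.60 and -0.95, 0.48). The distance rests on 3 libraries and describes likeness in these ratios only. hsa-miR-34a-5p, a target of p53, had 32.3 CPM in the parental strain, 16.5 in subclone1 and 10.5 in subclone2.

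MYC, which induces the cluster, is known to repress a set of other miRNAs, including let-7, miR-15a, miR-16, miR-26 and miR-29. Of 20 such names, 18 were kept. In subclone1 0 were called lower and 1 higher, where 3.12% and 9.9% of all kept names were called, with a median log2 ratio of 0.00 beside 0.02 for all kept names; in subclone2 1 was called lower and 1 higher, where 4.81% and 5.88% of all kept names were called, with a median of -0.10 beside -0.15. The called names were hsa-miR-146a-5p, a regulator of innate immune signalling, higher in subclone1 (1.07) and subclone2 (2.24), and hsa-miR-34a-5p, lower in subclone2. Between the subclones hsa-miR-146a-5p was higher in subclone2 (1.18).

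Of 38 other names with a hairpin on chromosome 13, 4 were kept and 0 were called in any comparison; with between 1.57% and 9.9% of all kept names called in a direction, 0 of 4 is no result about these names. hsa-miR-15a-5p, whose only RefSeq copy lies there (mature strand at GRCh38.p14, chr13:50049167-50049188), had 29.7 CPM in the parental strain, 23.2 in subclone1 and 21.0 in subclone2, with log2 ratios of -0.35 (interval -0.73 to 0.01) and -0.50 (-0.86 to -0.15). hsa-miR-16-5p, hsa-miR-320d and hsa-miR-548x-3p each have a further hairpin, and their log2 ratios lay between -0.26 and -0.08 in subclone1 and between -0.59 and 0.29 in subclone2.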
